A study of Homo sapiens with 6 samples.

Results

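Cathepsins are proteases of the lysosome, and 10 of their genes (CTSA, CTSB, CTSC, CTSD, CTSF, CTSH, CTSK, CTSL, CTSS and CTSZ) were followed here in human dermal fibroblasts whose ZNF469 transcript had been knocked down. They were taken by symbol from a table of 21151 genes, of which 16353 had enough reads to be tested, and all 10 were among those tested. They were chosen by family with the fold changes and adjusted p-values of the knockdown comparison already known, so the differences given for these genes between knockdown and control are a description and not independent evidence. The cells were of the CCD-1064Sk line (CRL-2076), fibroblasts cultured from skin in serum-containing medium. RNA sequencing covered 3 libraries with a control short-hairpin RNA (shControl, labelled wild type) and 3 with short-hairpin RNA against ZNF469 (shZNF469), a zinc-finger gene studied for its part in matrix production. Both groups therefore carried a hairpin construct, and the sources used here do not give its sequence, the number of hairpins or whether the cells were pooled or clonal. The series calls the 3 libraries of a group technical replicates, so every p-value measures only the spread between these libraries.

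Most cathepsins are cysteine proteases of the papain family, made as inactive precursors, tagged with mannose 6-phosphate in the Golgi, carried to the lysosome and activated there by the acid pH. CTSD is an aspartic protease and CTSA a serine carboxypeptidase. Besides general protein breakdown in the lysosome, fibroblasts use cathepsins to digest collagen that they have taken up, and secreted cathepsins can cut collagen and elastin outside the cell. Cystatins are tight-binding inhibitors of the cysteine cathepsins.

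Total counts ran from 35417366 to 48298264 per library. ZNF469 itself had 42.0 ± 3.70 CPM (read counts divided by the library's total, which was scaled by edgeR's TMM factor) in shControl and 19.4 ± 1.77 CPM in shZNF469 (SD, n = 3), with no overlap between the groups. Its log2 fold change, shZNF469 minus shControl as in all that follows, was -1.12 (SE 0.09, edgeR adjusted p = 0.000873). Of the fibroblast markers, all 10 were tested, and COL1A1, COL1A2 and COL3A1 were called lower and VIM higher. Their summed abundance was 31167 to 33579 TPM (a transcript abundance scaled for length and for the library's total) in shControl and 24224 to 25660 TPM in shZNF469. Across all genes tested, 9.9% were called, 4.56% higher and 5.34% lower (edgeR quasi-likelihood test, Benjamini-Hochberg adjusted p under 0.05), with a median log2 fold change of 0.00. The groups did not overlap in CPM for 31.4% of genes, 15.6% with shZNF469 higher and 15.7% with it lower. Among markers of other skin cells, KRT10 of the keratinocyte list was 1.42-fold lower and PMEL of the melanocyte list 2.01-fold higher (edgeR adjusted p = 0.0190 and 0.000525), and the other 5 genes of each list had no row in the table. Of the 5 endothelial markers, VWF and TEK were tested and did not pass (adjusted p = 0.760 and 0.694).

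The cathepsin genes were spread over the genome, apart from 1 neighbouring pair. On GRCh38.p14, CTSK (ENSG00000143387, chromosome 1, 150796208 to 150808260) and CTSS (ENSG00000163131, chromosome 1, 150730188 to 150765778) lay on the same strand with 30429 bases between them. CTSL (ENSG00000135047) was on chromosome 9, 87726119 to 87731469. CTSF (ENSG00000174080) was on chromosome 11, 66563464 to 66568606, and CTSH (ENSG00000103811) on chromosome 15, 78921058 to 78945046. CTSA overlapped PLTP, with a mean count of 4838.3, on the opposite strand, and CTSD overlapped a same-strand protein-coding gene model (ENSG00000250644) with a mean count of 520.3. No strand setting of the counting is stated, so reads of these neighbours may have been counted for CTSA and CTSD or the reverse.

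The stretches before the start sites of 7 members were read from RefSeq promoter tables on GRCh38.p14 and searched on both strands for CACGTG, the palindromic E-box, and for TCACGTGA, its longer form at the core of the element that the MITF and TFE factors bind in lysosomal genes. In the 300 bases from 250 before to 50 after the start, 3 of the 7 (CTSA, CTSD and CTSF) held CACGTG, which 7.43% of all 27305 promoters held. A match to TCACGTGA, which contains CACGTG, was found in 1 of the 7, CTSA, and in 1.04% of all promoters. The first base of the matches lay 42 and 25 bases before the start in CTSA, 47 before in CTSD, and 123 and 51 before in CTSF. Below are the 250 bases before the start of these 3 genes, with each CACGTG in capitals, and of CTSL, shown because it had the lowest p of the 7 in the knockdown comparison and held no match. CTSC, CTSH and CTSZ held no match either. A match is a description of letters, and binding was not measured.
CTSA, chr20:45891085-45891334 (plus strand): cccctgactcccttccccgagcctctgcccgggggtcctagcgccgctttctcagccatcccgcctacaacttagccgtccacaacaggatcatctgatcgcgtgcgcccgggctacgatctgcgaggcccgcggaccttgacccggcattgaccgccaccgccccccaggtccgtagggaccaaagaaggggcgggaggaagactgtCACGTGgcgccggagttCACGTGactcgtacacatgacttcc
CTSD, chr11:1763928-1764177 (minus strand): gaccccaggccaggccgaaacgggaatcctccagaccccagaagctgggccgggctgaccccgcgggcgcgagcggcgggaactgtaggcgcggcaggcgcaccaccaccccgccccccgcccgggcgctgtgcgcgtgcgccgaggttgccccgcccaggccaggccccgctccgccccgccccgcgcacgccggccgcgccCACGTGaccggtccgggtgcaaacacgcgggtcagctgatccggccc
CTSF, chr11:66568607-66568856 (minus strand): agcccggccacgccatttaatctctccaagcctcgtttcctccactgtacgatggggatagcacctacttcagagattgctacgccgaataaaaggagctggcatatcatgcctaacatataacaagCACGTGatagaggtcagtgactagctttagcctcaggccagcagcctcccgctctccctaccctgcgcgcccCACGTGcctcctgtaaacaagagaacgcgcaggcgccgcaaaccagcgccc
CTSL, chr9:87725869-87726118 (plus strand): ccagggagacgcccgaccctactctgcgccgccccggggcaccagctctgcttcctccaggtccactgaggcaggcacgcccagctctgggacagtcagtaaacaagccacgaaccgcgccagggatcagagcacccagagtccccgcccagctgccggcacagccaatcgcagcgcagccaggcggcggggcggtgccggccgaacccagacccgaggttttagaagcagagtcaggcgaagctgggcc

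Before any comparison between the groups, the cathepsins differed widely in level. In shControl, CTSB had the highest mean at 3020 ± 489 TPM and ranked 32nd of all listed genes, followed by CTSK at 1955 ± 48.6 TPM (57th). CTSA (850 ± 101 TPM), CTSD (763 ± 14.4 TPM) and CTSL (745 ± 129 TPM) came next, and their library values overlapped, so these 3 cannot be ordered. CTSZ (266 ± 0.977 TPM), CTSC (219 ± 31.1 TPM), CTSF (130 ± 2.72 TPM) and CTSH (74.2 ± 3.78 TPM) followed without overlap between neighbours. CTSS, best known from antigen-presenting cells, was far below the rest at 4.32 ± 0.703 TPM, below the median of all listed genes (percentile 47.4).

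**Figure D1:**
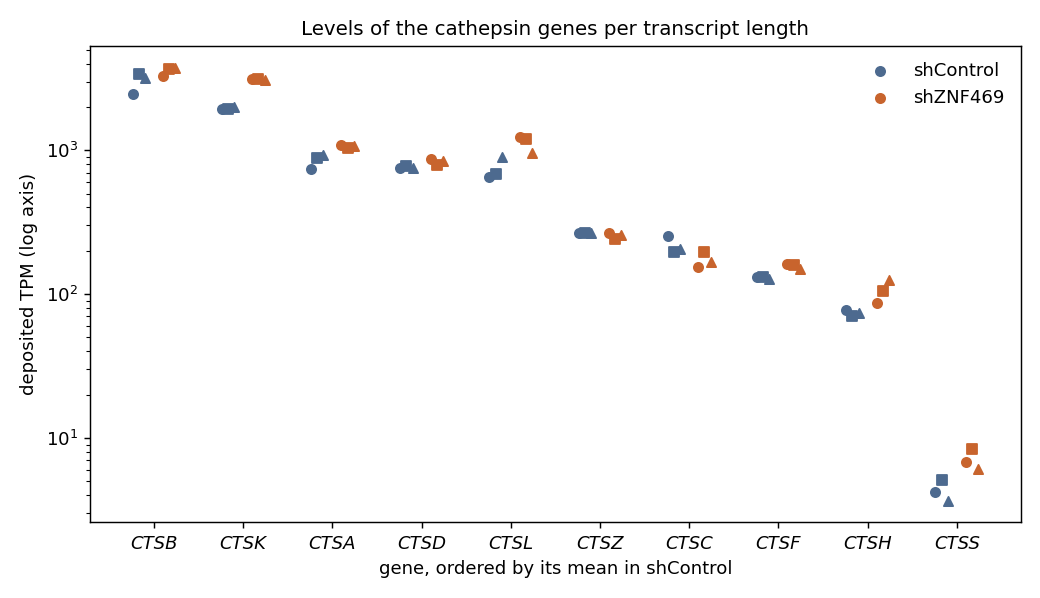
Deposited TPM of the 10 cathepsin genes on a log axis, 1 point per library (circle, square and triangle for replicates 1, 2 and 3), genes ordered by their shControl mean. CTSB and CTSK lie above the others in both groups, CTSS lies below 10 TPM throughout, and CTSL moves from rank 5 to rank 3 by its mean.

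In shZNF469 the order was nearly kept. CTSB (3555 ± 262 TPM) and CTSK (3104 ± 38.2 TPM) kept ranks 1 and 2 without overlap. CTSL went from rank 5 to rank 3 of the 10 by its mean (1130 ± 149 TPM), although its values overlapped those of CTSA (1064 ± 28.5 TPM). The 10 genes together summed to 7277, 8355 and 8448 TPM in shControl and to 10247, 10504 and 10394 TPM in shZNF469. The groups did not overlap, and the ratio of the means was 1.29 (1.25 for summed CPM). CTSK alone made up 24.5 ± 1.81% of that sum in shControl and 29.9 ± 0.609% in shZNF469, while the shares of CTSB (37.5 ± 3.42% and 34.2 ± 2.22%) overlapped within their SD. In these bulk libraries, more RNA per cell and more cells with high levels cannot be told apart.

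By read counts, 5 of the 10 cathepsin genes were called higher in shZNF469 (CTSK, CTSL, CTSS, CTSH and CTSF) and 0 were called lower, where 4.56% of all genes were called higher and 5.34% lower (9.9% in all). The other 5 (CTSA, CTSB, CTSC, CTSD and CTSZ) did not pass. The median log2 fold change of the 10 was 0.27. The groups did not overlap in CPM for 6 of the 10, all higher in shZNF469, beside 15.6% of all genes in that direction, 15.7% in the other and 31.4% in all. At an unadjusted p under 0.05 neither CTSC nor CTSZ, the members with a negative log2 fold change, was lower, and DESeq2 called 0 members lower. The count depended on single libraries. It was 2, 3 and 3 without shControl replicates 1, 2 and 3, and 2, 8 and 5 without shZNF469 replicates 1, 2 and 3, while the count of all genes called higher went from 745 to 215, 332, 267, 204, 769 and 496 in the same order.

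**Figure D2:**
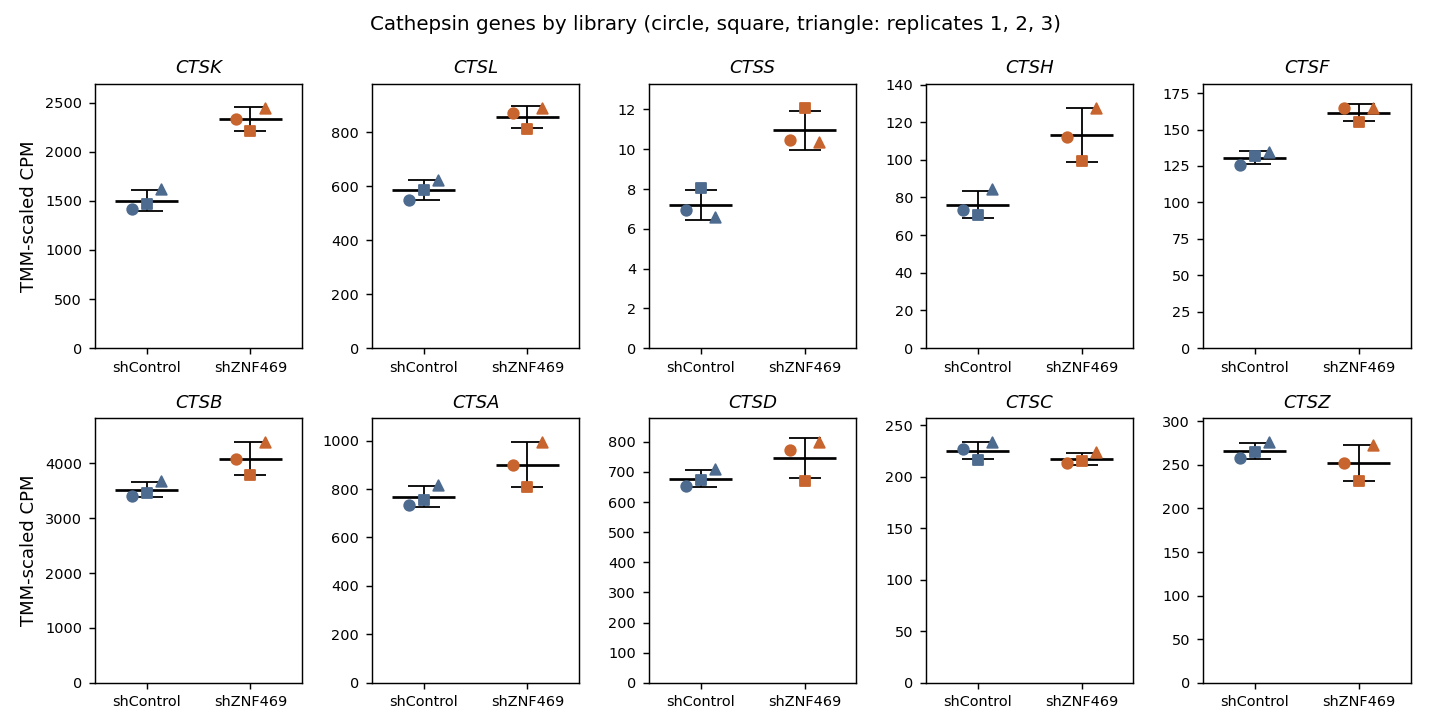
TMM-scaled CPM of each cathepsin gene by library, axes from 0, with group means (long bars) and SD (capped bars, n = 3). The 3 shZNF469 points lie above the 3 shControl points for CTSK, CTSL, CTSS, CTSH, CTSF and CTSB, and the groups overlap for CTSA, CTSD, CTSC and CTSZ.

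CTSK, the cathepsin that can cut the collagen triple helix and by which osteoclasts dissolve bone matrix, had the lowest p of the 10. It had 1420, 1467 and 1621 CPM in shControl and 2337, 2209 and 2449 CPM in shZNF469. Every shZNF469 library was above every shControl library. The log2 fold change was 0.63 (SE 0.06, 1.55-fold higher, edgeR adjusted p = 0.00144), and the deposited TPM gave a ratio of 1.59. This call held in all 15 alternative settings, with log2 fold changes of 0.60 to 0.69 and an adjusted p of at most 0.0156.

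CTSL, a strong endopeptidase of lysosomes that also cuts elastin and collagen, was next by p. Its levels were 551, 586 and 623 CPM in shControl and 871, 813 and 892 CPM in shZNF469, again without overlap. The log2 fold change was 0.55 (SE 0.06, 1.46-fold higher, edgeR adjusted p = 0.00240), and the call held in all 15 alternatives (adjusted p at most 0.0425). By TPM the libraries were less even, at 655, 688 and 893 in shControl and 1228, 1204 and 958 in shZNF469. There shControl replicate 3 lay high and shZNF469 replicate 3 low. The reads per unit of TPM, scaled to the median gene, were 0.708, 0.715 and 0.541 in shControl and 0.574, 0.581 and 0.707 in shZNF469. CTSL reads could in principle be shared with its close paralog CTSV, but CTSV was listed at 0 in all 3 shControl libraries and in shZNF469 replicate 1 and had 33 and 39 counts in shZNF469 replicates 2 and 3.

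CTSS, an elastin-cutting endopeptidase that stays active at neutral pH, differed by a similar fold at a much lower level. Its counts were 247, 379 and 246 in shControl and 488, 599 and 420 in shZNF469, or 6.93, 8.04 and 6.58 CPM against 10.5, 12.1 and 10.3 CPM. No library of one group reached into the other. The log2 fold change was 0.61 (SE 0.12, 1.52-fold higher, edgeR adjusted p = 0.0207), slightly below that of CTSK, whereas the ratio by TPM was slightly above it (1.64). The ratio of CTSK to CTSS counts was 211 ± 32.5 in shControl and 214 ± 28.2 in shZNF469, so these neighbouring genes differed between the groups by about the same factor. The call of CTSS was lost without shControl replicates 1 or 3, without shZNF469 replicate 1 and in both limma fits on TPM, with adjusted p up to 0.0858.

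CTSS is a marker of myeloid cells, so the list of myeloid markers was read beside it. Of its 10 genes, PTPRC, CSF1R, LYZ, AIF1, ITGAM and FCER1G had no row in the table. TYROBP had 7 counts in shControl replicate 1 and was listed at 0 in every other library. CD14 was at 0.840 ± 0.365 and 0.830 ± 0.154 CPM. CD74 had 1.74 ± 0.178 and 2.48 ± 0.280 CPM without overlap (1.42-fold higher, edgeR adjusted p = 0.174). CD68, a lysosomal protein gene that fibroblasts express too, had 135 ± 13.5 and 170 ± 25.7 CPM. Of these, 0 of 3 tested were called by edgeR (adjusted p = 0.146 for CD68), although 2 had an unadjusted p under 0.05, and CD68 passed with DESeq2 and without shZNF469 replicate 2. The summed level of the list was 176 to 198 TPM in shControl and 208 to 248 TPM in shZNF469, nearly all of it CD68.

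CTSH, an aminopeptidase, had 73.3, 70.9 and 84.4 CPM in shControl and 112, 99.2 and 128 CPM in shZNF469. The groups did not overlap, although the shZNF469 libraries differed among themselves by more than the shControl ones. The log2 fold change was 0.57 (SE 0.11, 1.48-fold higher, edgeR adjusted p = 0.0193). CTSF, whose loss causes a lysosomal storage disease of neurons, had 126, 132 and 134 CPM against 165, 155 and 165 CPM, also without overlap. It was 1.24-fold higher (log2 fold change 0.31, SE 0.05, edgeR adjusted p = 0.0147). CTSF was thus the only called member whose promoter sequence, printed above, held a CACGTG among the 3 called members with a sequence. Both calls were lost without shControl replicates 1 or 2, without shZNF469 replicate 1 and in both limma fits on TPM, and that of CTSF also without shControl replicate 3, with adjusted p up to 0.0872 for CTSH and 0.0742 for CTSF.

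CTSB (ENSG00000164733, chromosome 8, 11842524 to 11868087), an abundant lysosomal protease with both endopeptidase and carboxypeptidase activity, had 3411, 3466 and 3670 CPM in shControl and 4081, 3777 and 4378 CPM in shZNF469. The groups did not overlap in CPM, but the gene did not pass (log2 fold change 0.21, SE 0.06, edgeR adjusted p = 0.0587). It passed in 5 of the 15 alternatives, among them DESeq2, scaling by total counts alone, the replicate block and the fit without shZNF469 replicate 2. Its TPM overlapped. The reads per unit of TPM, scaled to the median gene, were uneven for CTSB, at 1.161, 0.853 and 0.895 in shControl and 1.014, 0.890 and 0.886 in shZNF469. The ratio of CTSK to CTSB counts, which does not depend on scaling, went from 0.416, 0.423 and 0.442 in shControl to 0.573, 0.585 and 0.559 in shZNF469. These values did not overlap, so the 2 most abundant cysteine cathepsins were not in the same proportion in the 2 groups.

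The exopeptidases CTSC and CTSZ had the only log2 fold changes below 0. CTSC, a dipeptidyl peptidase that activates granule proteases of immune cells, was at 226 ± 8.48 and 217 ± 5.83 CPM (log2 fold change -0.05, SE 0.05, edgeR adjusted p = 0.609). By TPM it was at 254.4, 197.1 and 204.9 in shControl and 153.8, 196.5 and 167.9 in shZNF469, a ratio of 0.79. The groups did not overlap, but their replicates 2 nearly touched. The reads per unit of TPM, scaled to the median gene, were 1.20 times as high in shZNF469 as in shControl for CTSC, against 0.92 to 1.05 for the other 9, so its TPM and its counts do not describe the same change. CTSZ, a carboxypeptidase, was at 266 ± 9.19 and 252 ± 20.5 CPM (log2 fold change -0.08, SE 0.07, edgeR adjusted p = 0.579), and both its CPM and its TPM overlapped.

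The 2 members outside the cysteine class did not pass. CTSD, the main aspartic protease of lysosomes, had 652, 673 and 708 CPM in shControl and 771, 670 and 798 CPM in shZNF469. Replicate 2 of shZNF469 lay among the controls (log2 fold change 0.14, SE 0.07, edgeR adjusted p = 0.294), and without it CTSD passed (adjusted p = 0.0386). CTSA, which forms a complex that protects the lysosomal enzymes encoded by NEU1 and GLB1, had 735, 753 and 818 CPM against 901, 808 and 992 CPM. Here too shZNF469 replicate 2 lay within the control range (log2 fold change 0.23, SE 0.08, edgeR adjusted p = 0.128), and CTSA passed with DESeq2 and without that library. Both promoters held CACGTG, as printed above.

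The libraries of a group did not scatter independently from gene to gene. In shControl, replicate 3 was the highest for 9 of the 10 members in CPM, CTSS being the exception. In shZNF469, replicate 2 was the lowest for 8 and replicate 3 the highest for 8. The share of counts on mitochondrially encoded genes, often read as a sign of RNA or cell state, was 3.73%, 3.88% and 4.06% in shControl replicates 1, 2 and 3 and 4.52%, 4.22% and 4.70% in shZNF469 replicates 1, 2 and 3. It was higher in every shZNF469 library, and 6 members (CTSA, CTSB, CTSD, CTSK, CTSL and CTSZ) ordered the libraries within both groups as this share did. Its part in the cathepsin values was not tested. These orders of libraries were not counted over all genes, so they may not be particular to the cathepsins.

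Outside the 10 members, only 1 of the 5 other cathepsin genes could be tested. CTSO, the other cathepsin gene that was tested, had 64.0, 55.7 and 61.1 CPM in shControl and 57.8, 64.8 and 60.4 CPM in shZNF469. The groups overlapped (log2 fold change 0.02, SE 0.07, edgeR adjusted p = 0.923). CTSV was too low to test, and CTSE, CTSG and CTSW had no row in the table.

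No tested gene of a cathepsin inhibitor passed. Of the 13 in the list, 4 had a row and 3 were tested, and 0 of 3 were called in either direction by edgeR or at an unadjusted p under 0.05. DESeq2 gave an adjusted p for CST3 and CSTB only and called neither. CST3, the secreted cystatin C, was at 146, 153 and 186 CPM in shControl and 151, 139 and 203 CPM in shZNF469 (log2 fold change 0.03, SE 0.15, edgeR adjusted p = 0.947). CSTB, the cystatin of the cytosol, was at 158 ± 26.6 and 176 ± 35.0 CPM (adjusted p = 0.660). For both, the group means differed by less than the SD within either group. CST6 was at 0.644 ± 0.299 and 0.463 ± 0.247 CPM, and CSTA had 8 counts in 1 library of each group and was listed at 0 in the others. Summed TPM of the 8 cysteine cathepsins over that of CST3 was 15.0, 16.6 and 14.5 in shControl and 21.1, 22.6 and 16.7 in shZNF469, where replicate 3 lay just above the controls. Over CST3 plus CSTB it was 6.44, 6.91 and 6.00 in shControl and 8.28, 9.08 and 6.82 in shZNF469, and the groups overlapped.

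**Figure D3:**
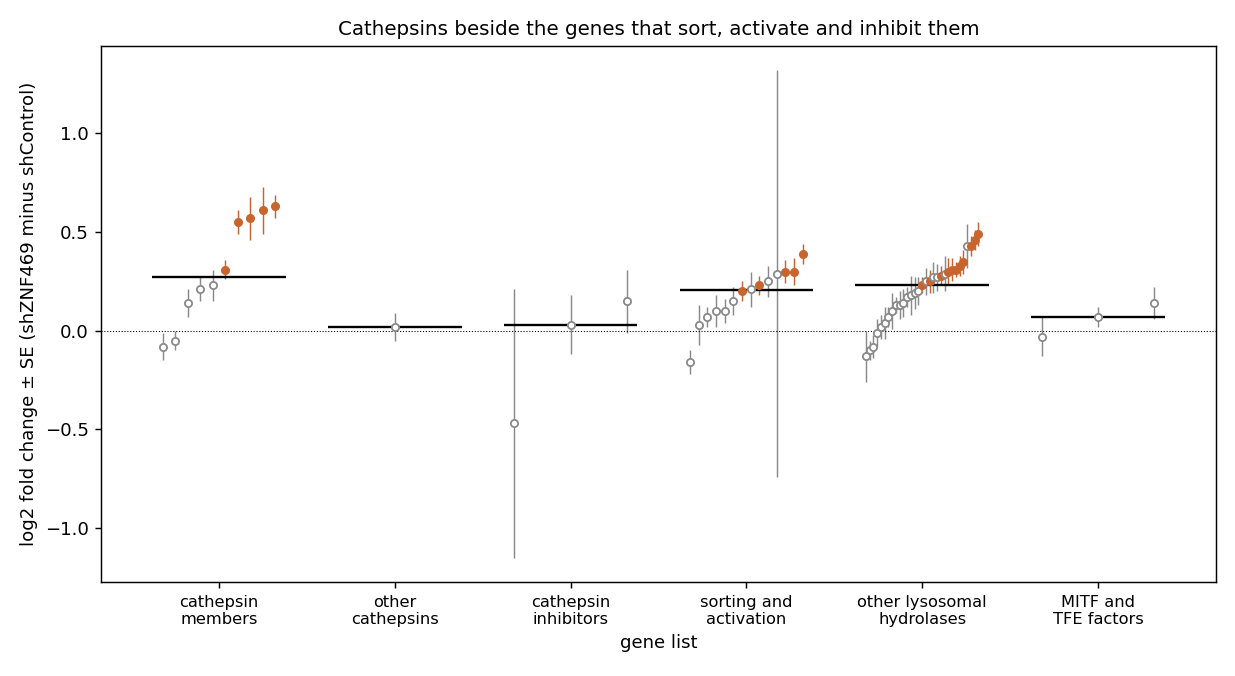
Log2 fold change (shZNF469 minus shControl) with its SE for the tested genes of 6 lists, filled orange where the edgeR adjusted p was under 0.05 and open grey otherwise, with a black bar at each list's median. The cathepsin median (0.27) is near those of the genes for sorting, activation and partners (0.21) and of the other lysosomal hydrolases (0.23), and 4 cathepsins lie above 0.50.

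The next list held genes that sort or activate cathepsins and genes whose products are their partners in the lysosome. Of 14, all tested, 5 were called higher and 0 lower, with a median log2 fold change of 0.21. Over all genes tested, 4.56% were called higher and 5.34% lower (9.9% in all), with a median of 0.00. Receptors were among the 5 (LRP1 and IGF2R), and so were partners (GLB1, NEU1 and PSAP). LRP1, an endocytic receptor with many ligands, proteases among them, was at 1402 ± 52.3 and 1837 ± 109 CPM (1.31-fold higher, edgeR adjusted p = 0.00552). IGF2R, the large mannose 6-phosphate receptor, was 1.23-fold higher (adjusted p = 0.0204), whereas M6PR, the small one, was at 96.9 ± 0.638 and 102 ± 1.42 CPM (adjusted p = 0.413). GLB1 and NEU1, the partners of CTSA, were 1.18-fold and 1.23-fold higher (adjusted p = 0.0317 and 0.0401), and PSAP, the saposin precursor, 1.15-fold higher (adjusted p = 0.0336). LGMN, the legumain gene whose product cuts cathepsin precursors, did not pass (71.8 ± 2.60 and 79.8 ± 5.53 CPM, adjusted p = 0.217). SORT1, another sorting receptor, was the only gene of the list with an unadjusted p under 0.05 in the lower direction (1.12-fold, adjusted p = 0.125) and was called lower by DESeq2. With 1 library left out, the count of higher genes was 1 in each fit without a shControl library. It was 1, 6 and 2 without shZNF469 replicates 1, 2 and 3. The count of all genes called higher went from 745 to 215, 332, 267, 204, 769 and 496 in these fits, shControl libraries first. The call of LRP1 was lost in 1 of the 15 alternatives, that of IGF2R in 6, those of PSAP and GLB1 in 7 and that of NEU1 in 8.

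The other hydrolases of the lysosome were higher in part as well. Of 32 genes, 31 were tested. Where 4.56% of all genes were called higher and 5.34% lower (9.9% in all), 11 of the 31 were called higher and 0 lower. DESeq2 also called 0 lower, and 0 were lower at an unadjusted p under 0.05. The 31 had a median log2 fold change of 0.23 (0.00 over all genes tested). Those with the lowest p were ASAH1, the acid ceramidase gene (271 ± 1.81 to 365 ± 14.4 CPM, 1.35-fold higher, adjusted p = 0.00260), GM2A (1.38-fold, adjusted p = 0.00309), IDS (1.40-fold, adjusted p = 0.00381) and TPP1, a lysosomal peptidase gene (1.24-fold, adjusted p = 0.00577). The largest log2 fold change of these hydrolases was 0.49 (IDS), against 0.55, 0.57, 0.61 and 0.63 for CTSL, CTSH, CTSS and CTSK, a difference that was not tested. The count went to 5, 6 and 5 without shControl replicates 1, 2 and 3 and to 4, 17 and 6 without shZNF469 replicates 1, 2 and 3. In the same order, the count of all genes called higher went from 745 to 215, 332, 267, 204, 769 and 496. Transcripts of the factors that bind the E-box of lysosomal genes did not pass with edgeR or DESeq2, and 0 of the 3 tested had an unadjusted p under 0.05. MITF was at 50.8 ± 1.12 and 55.9 ± 6.42 CPM (adjusted p = 0.381), TFE3 at 93.2 ± 0.408 and 97.9 ± 3.23 CPM (adjusted p = 0.465) and TFEB at 5.77 ± 0.0516 and 5.65 ± 0.252 CPM (adjusted p = 0.907), while TFEC had no row. In CPM the groups did not overlap for 2 of the 3, MITF and TFE3, both higher in shZNF469, whereas TPM overlapped for each factor. Over all genes tested, 15.6% did not overlap in that direction, 15.7% in the other and 31.4% in all. Protein amount and nuclear location of the MITF and TFE factors were not measured.

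Transcripts of matrix proteins that cathepsins K and S digest were lower in part. Of 7 substrate genes tested, 5 were called lower (COL1A1, COL1A2, COL3A1, ELN and ACAN) and 0 higher. Over all genes tested, 5.34% were called lower and 4.56% higher (9.9% in all). DCN (log2 fold change 0.17, edgeR adjusted p = 0.0704) and BGN (log2 fold change -0.20, adjusted p = 0.179) did not pass. The unadjusted edgeR p was 0.00865 for DCN and 0.0397 for BGN. DESeq2 called 1 of the 7 higher (DCN) and 6 lower, BGN among them. The call of ACAN was lost in 9 of 15 alternatives, each of the 6 fits without 1 library among them, and those of the other 4 genes in none. COL1A1 had 8280, 8877 and 7701 TPM in shControl and 2569, 2479 and 2256 TPM in shZNF469. CTSK transcripts accordingly stood at 0.233, 0.217 and 0.261 per COL1A1 transcript in shControl and at 1.22, 1.26 and 1.36 in shZNF469 by TPM. Both genes already separated the groups, in opposite directions, so their ratio had to separate them too and adds no evidence. The means of this ratio differed by 5.39-fold, or 5.23-fold by counts. By TPM, shZNF469 over shControl was 0.29 for COL1A1 and 1.59 for CTSK, so the larger part came from COL1A1. Against COL1A2, which was also lower without overlap, the ratio was 0.219 ± 0.0200 in shControl and 0.643 ± 0.0436 in shZNF469. These are ratios of transcripts, and neither protease activity nor collagen protein was measured.

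**Figure D4:**
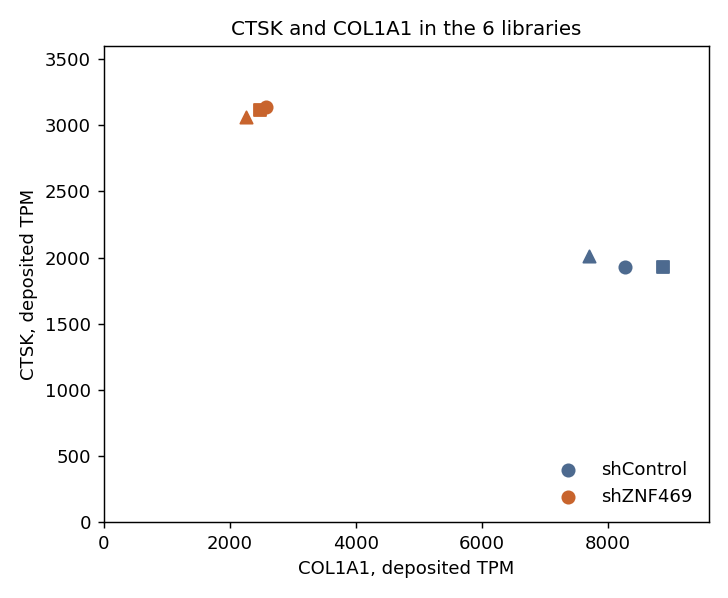
CTSK against COL1A1 in deposited TPM, both axes from 0, 1 point per library (circle, square and triangle for replicates 1, 2 and 3). The shControl libraries lie at 7701 to 8877 TPM of COL1A1 with CTSK near 1955, and the shZNF469 libraries at 2256 to 2569 TPM with CTSK near 3104.

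Among 9492 other genes with a symbol and a mean of 10 CPM or more, CTSL was one of the 2 genes whose log2 CPM followed that of CTSK most closely over the 6 libraries, with a Pearson's r of 0.9981, equal to that of LETMD1 to 4 decimals. PARP16 (0.9978), CDKN1A (0.9972), the cyclin-dependent kinase inhibitor gene, and PPP1R18 (0.9970) came next. For CTSL the nearest were CTSK, PPP1R18 (0.9978), LETMD1 (0.9975), FAM222B (0.9970) and CDKN1A (0.9970). These values describe the 6 libraries, in which the group difference and shared scaling enter every gene. CDKN1A was 1.35-fold, LETMD1 1.40-fold and PPP1R18 1.29-fold higher (edgeR adjusted p = 0.00251, 0.00261 and 0.00907). Genes picked for likeness to CTSK or CTSL in these libraries share their group difference, so these calls follow from the choice.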

How the data were processed

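Libraries of 3 shControl and 3 shZNF469 samples were prepared from total RNA with a NEBNext Ultra kit (per the labels' protocols). The submitters' processing notes name HISAT2, StringTie and GRCh38.p14, with no versions. Annotation release, strand setting and low-value filter are not stated. The deposited table holds whole-number read counts per gene and the TPM that the authors computed. Groups were taken from the sample titles.

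Counts were tested with edgeR 4.0.16 in R 4.3.3: filterByExpr (minimum count 10), TMM scaling, quasi-likelihood F-test, two-sided, Benjamini-Hochberg over 16353 genes, threshold 0.05. The SE came from the estimate and its F statistic. Levels between genes were compared in TPM only. Alternatives were DESeq2 1.42.0, limma 3.58.1 on log2(TPM + 1) and log2(TPM + 0.1), other scalings and filters, a replicate block and leaving out each library. Members and lists were chosen with earlier results of these data known. Besides the members and ZNF469, the 5 other cathepsin genes, up to 4 genes of each list with the lowest p and all genes of short lists were named. A few further list genes were named for their role, after their values were seen. For a repeated symbol the row with the largest mean count was taken. Positions and promoters are RefSeq's, overlaps GENCODE release 29's.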

Additional observations from a re-analysis of the deposited data

How the results depend on the processing

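Over 15 alternative settings, the sign of the log2 fold change of each of the 10 cathepsin genes was the same as in the main analysis. The counts moved. Cathepsin genes called higher were 2 in the limma fits on log2(TPM + 1) and on log2(TPM + 0.1), and 2 to 8 with single libraries left out. In the list of genes for sorting, activation and partners, 1 and 0 were called higher in the same limma fits. Without single libraries 1 to 6 were, and DESeq2 called 1 gene of the list (SORT1) lower. Other lysosomal hydrolases called higher were 20 with DESeq2, 6 and 5 in the limma fits and 4 to 17 without single libraries. All genes called higher were 1622 with DESeq2, 233 and 191 in the limma fits and 204 to 769 without single libraries, and all genes called lower were 1624, 526, 462 and 333 to 854. ZNF469 passed in every setting (log2 fold change -1.20 to -0.94). The summed cathepsin level stayed at 7816 to 8401 TPM in shControl and 10320 to 10449 TPM in shZNF469 with single libraries left out.

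Same-numbered libraries of the groups deviated together with correlations of -0.023, 0.076 and 0.033, so the numbers were not taken as pairs. With the replicate block, 6 cathepsin genes were called higher and 0 lower, beside 592 and 736 of all genes. CTSB was the gene gained. The low count of CTSS, and the single line and unstated hairpins, limit how far these values carry.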
